A study of Mus musculus with 5 samples.

Results

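The genes described are the mouse hexokinases Hk1, Hk2 and Hkdc1 and the pyruvate kinases Pkm and Pklr, which are 5 of the 21930 genes in the deposited expression table. They are the 2 genes that the labels give as overexpressed and isozymes of these, taken by gene name. FPKM (a count of sequenced fragments divided by transcript length and by the library's mapped total) was summed over their 7 RefSeq transcripts in each of 5 RNA-seq libraries, so values are given per length and genes can be set beside each other. The libraries came from mouse embryonic stem cells called E14, for which the labels give the strain C57BL/6 and E14 as the developmental stage. Normal E14 cells were taken with LIF (leukemia inhibitory factor, the cytokine that keeps mouse embryonic stem cells undifferentiated) or after 24 hours without LIF followed by its return. Cells labelled as overexpressing Hk2 and Pkm2 were taken in the same 2 states and, in addition, after 40 days without LIF. Each group is 1 library, the 40 day state has no counterpart in normal cells, and no source used here gives the vector, its promoter or the number of clones behind the overexpressing cells.

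Hexokinases trap glucose in the cell by phosphorylating it, the entry step of glycolysis. Hk1 is the widespread isozyme, Hk2 is the inducible one of muscle, embryonic and tumour cells, and both can dock on the outer mitochondrial membrane through the channel protein VDAC. Hkdc1 is a less studied relative of Hk1. Pyruvate kinases catalyse the last step of glycolysis, from phosphoenolpyruvate to pyruvate with formation of ATP. Pkm gives an M1 form, typical of muscle and brain, or an M2 form, typical of embryonic and dividing cells, by use of one or the other of a pair of mutually exclusive exons. Pklr gives the pyruvate kinase of liver and red blood cells.

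Hk2 lies on chromosome 6 (82675019 to 82724448, minus strand), Pkm on chromosome 9 (59504383 to 59527182, plus strand) and Pklr on chromosome 3 (88940064 to 88950706, plus strand). Hk1 (61731603 to 61842656) and Hkdc1 (61845885 to 61885239) are neighbours on the minus strand of chromosome 10, with 3228 bases between them. All are protein-coding, and the coordinates are those of GENCODE vM1 on NCBIM37, the assembly also called mm9. The libraries' kit does not mark strand, so reads of genes that overlap a member cannot be told apart from its own where they share sequence. RefSeq has such a gene for Hk1 (Hk1os, 0.183 to 0.451 FPKM here) and for Pklr (Hcn3, 0 to 0.669 FPKM), and non-coding models for Pkm and Hkdc1. Hk2 has none.

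The exon pair of Pkm is shown because the labels name the M2 form while the table has a single row for the gene. GENCODE vM1 annotates 2 coding transcripts of Pkm with 11 exons each. Between their ends they share 8 exons and differ in 1. Both alternative exons are 167 bases long, and capitals mark the 64 positions at which they differ.
M1 exon, chr9:59522836-59523002 (NCBIM37, plus strand): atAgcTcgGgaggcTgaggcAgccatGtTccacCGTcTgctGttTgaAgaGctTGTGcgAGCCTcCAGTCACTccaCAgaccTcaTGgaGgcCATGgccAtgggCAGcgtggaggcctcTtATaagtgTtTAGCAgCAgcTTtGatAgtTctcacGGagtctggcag
M2 exon, chr9:59523375-59523541 (NCBIM37, plus strand): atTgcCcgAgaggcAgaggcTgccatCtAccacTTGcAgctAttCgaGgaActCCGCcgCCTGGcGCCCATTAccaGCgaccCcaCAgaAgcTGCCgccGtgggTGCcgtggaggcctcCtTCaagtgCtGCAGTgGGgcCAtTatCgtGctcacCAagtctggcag
They are 61.7% identical, and the longest stretch without a difference is 12 bases. Only fragments that reach these exons carry the difference between the forms. The gene's single value below therefore covers Pkm as a whole, and gives no M2 level. No source used here says whether the introduced Hk2 and Pkm2 sequences would be counted in the rows of Hk2 and Pkm.

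Isozymes can share reads where their sequences are alike. The coding sequences of Hk1, Hk2 and Hkdc1 were 70.7% to 71.3% identical in pairs, with shared exact runs of 24 to 27 bases at most. Pkm and Pklr were 70.4% identical, with a longest shared run of 31 bases. How the authors counted fragments that match more than 1 gene is not given in the sources, so values of close isozymes are uncertain to that extent.

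Estimated depth per library was 36.2 M to 39.9 M fragments, read from the FPKM value that 1 fragment adds to transcripts over 1500 bases. That value was a median inside a window set beforehand, so the window bounds the estimate and the depths are approximate. Between 9032 and 9861 genes reached 1 FPKM in a library. All 7 embryonic stem cell markers on the list (Pou5f1, Nanog, Sox2, Zfp42, Esrrb, Fgf4 and Dppa5a) were at 1 FPKM or more in every library. Their summed level was 2938 and 2805 FPKM in normal and overexpressing cells with LIF, 2471 and 2304 FPKM after 24 hours without it, and 1662 FPKM at 40 days, with Pou5f1 and Dppa5a as the highest members. The 6 endoderm markers summed to 1.91 to 4.79 FPKM in 4 libraries and to 51.3 FPKM at 40 days, mostly Gata4 and Sox7. Afp was listed at 0 throughout, and Sox17 went the other way, at 0.0199 to 0.0672 FPKM in 4 libraries and listed at 0 at 40 days. The 7 fibroblast or feeder markers summed to 1.07 to 9.59 FPKM, highest at 40 days, with Thy1 and Pdgfra at 4.26 and 4.199 FPKM there. In overexpressing cells after withdrawal Thy1 was as high, at 4.32 FPKM, and Pdgfra was at 0.0914 FPKM. Pdgfrb was at 0.726 FPKM at 40 days, and Col1a1, Col1a2, Col3a1 and Postn at 0.165 FPKM or less. The 4 neural markers, with Tubb3 listed at 0 in normal cells after withdrawal, summed to 3.57 to 53.1 FPKM and the 4 mesoderm markers to 0.446 to 1.28 FPKM. The 5 muscle and liver markers summed to 0.195 to 2.32 FPKM with Alb listed at 0 throughout, and the 5 erythroid markers to at most 0.674 FPKM.

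Hk2 was the main hexokinase transcript in all 5 libraries. With LIF, Hk2 was at 76.2 FPKM in the normal library and at 98.6 FPKM in the one labelled as overexpressing. After the 24 hour withdrawal it stood at 49.7 FPKM in normal and 59.0 FPKM in overexpressing cells, and at 40 days without LIF at 29.0 FPKM. The overexpressing library was the higher one in both cultures, but after withdrawal it lay below the normal library with LIF, so the groups by label overlapped. Hk2 ranked at percentile 94.8 of the 9590 genes with a mean of at least 1 FPKM in overexpressing cells with LIF, and at percentile 78.7 at 40 days.

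For the labelled cell type, the log2 ratio of Hk2 on the log2(FPKM + 1) scale was 0.37 with LIF and 0.24 after withdrawal. These ratios lay at percentiles 85.7 and 80.0 of all genes tested. Over the 4 libraries of both cell types and both cultures, limma gave a difference of 0.30 ± 0.079 (SE, 4 libraries) with an adjusted p of 0.52. It did not pass, and the fit had too little replication to call even large changes.

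For withdrawal, the log2 ratio of Hk2 was -0.61 in normal and -0.73 in overexpressing cells, at percentiles 10.3 and 9.3 of all genes. The limma estimate was -0.67 ± 0.079 (SE, 4 libraries) with an adjusted p of 0.33, which did not pass. Both libraries after withdrawal were below both with LIF. The same was true of Hk1 but not of Pkm, 2 of the 3 members tested, against 20.2% of all genes tested. None of the 3 was higher in both libraries after withdrawal than in both with LIF (20.6% of all genes). By label, none had both overexpressing libraries below both normal ones (22.5% of all genes) or above them (16.5%).

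The 40 day library had the lowest Hk2 of the series. Against overexpressing cells with LIF the log2 ratio was -1.73, a level 3.40-fold lower in FPKM, at percentile 3.4 of all genes. Hk2 was the 1 of 3 members past the filter that differed 2-fold in this pair, where 22.3% of all genes did and 8.31% were 2-fold lower. Against overexpressing cells after 24 hours the log2 ratio was -0.999, just short of 2-fold on the log2(FPKM + 1) scale, although the FPKM ratio itself was 2.03. In that pair 17.8% of all genes passed 2-fold. With 1 library per group these 2 ratios have no replicate check. Of the stem cell markers, Nanog was at 183 and 54.5 FPKM in overexpressing cells with LIF and after 24 hours and at 29.6 FPKM at 40 days. Zfp42 was at 278, 128 and 40.9 FPKM and Esrrb at 139, 40.3 and 29.0 FPKM in the same order, so these were lowest where Hk2 was lowest. The summed endoderm markers were highest there, although Sox17 of that list was listed at 0, and the part of either marker list in the result was not tested. In bulk RNA, fewer cells with Hk2 and less Hk2 RNA per cell cannot be told apart.

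Pkm was the most abundant member in every library and the least variable of the 3 members tested. With LIF, Pkm was at 510 FPKM in normal and 567 FPKM in overexpressing cells. After withdrawal the order was the opposite, with 611 FPKM in normal and 564 FPKM in overexpressing cells, and the 40 day library stood lowest at 495 FPKM. The highest value was 1.23 times the lowest, and Pkm stayed at percentile 99.6 or 99.7 of all genes. The log2 ratios for cell type were 0.15 with LIF and -0.11 after withdrawal, so the 2 cultures differed in sign. The limma estimate was 0.020 ± 0.12 (SE, 4 libraries) for cell type with an adjusted p of 0.96, and 0.13 ± 0.12 for withdrawal with an adjusted p of 0.67. Neither passed. At 40 days the log2 ratio was -0.20 against LIF and -0.19 against 24 hours, and the latter was 0.0 under quantile normalization.

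**Figure D1:**
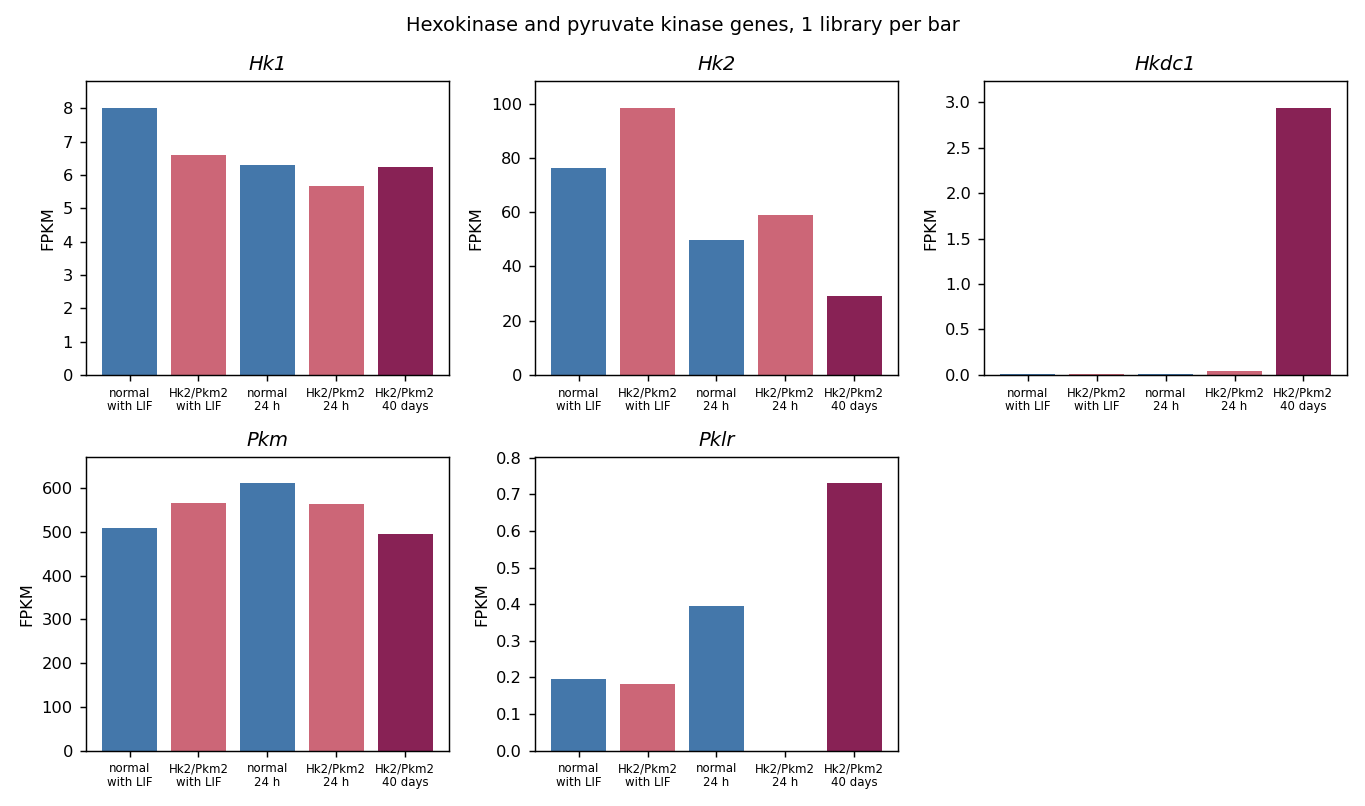
FPKM (vertical axes, each from 0 on its own scale) of the 5 genes in the 5 libraries (horizontal axes), 1 library per bar with no error available; blue is normal cells, red is cells labelled Hk2/Pkm2, purple is the same cells at 40 days. Hk2 runs from 29.0 to 98.6 FPKM, Pkm stays between 495 and 611 FPKM, Hkdc1 is visible almost only at 40 days (2.94 FPKM), and Pklr is listed at 0 in overexpressing cells after withdrawal.

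On the log2(FPKM + 1) scale none of the 3 members tested differed 2-fold between the labelled cell types, neither with LIF (9.43% of all genes tested did, 4.11% higher and 5.32% lower) nor after withdrawal (9.37%, with 4.19% higher and 5.18% lower). Nor did any of the 3 differ 2-fold with withdrawal, in normal cells (10.1% of all genes, 4.62% higher and 5.51% lower) or overexpressing cells (11.9%, with 5.79% higher and 6.07% lower). Hkdc1 (at most 0.0400 FPKM in the libraries of these pairs) and Pklr (at most 0.395 FPKM) were too low to pass on this scale. In FPKM itself some pairs passed 2-fold. Hkdc1 was 5.77-fold higher in overexpressing cells after withdrawal, on 5 and 1 estimated fragments. Ratios with withdrawal were 3.29 for Hkdc1 in overexpressing cells and 2.03 for Pklr in normal cells. None of the 3 members tested was 2-fold higher at 40 days, where 14.0% of all genes were 2-fold higher than with LIF and 12.1% higher than after 24 hours. None of the 3 was 2-fold lower than after 24 hours, where 5.78% of all genes were. In limma 0 of the 9590 genes (0.0%) passed by cell type, and 918 had an unadjusted p below 0.05. By withdrawal 0 passed as well (0.0%), and 1154 had an unadjusted p below 0.05. The fit has 1 residual degree of freedom, and on simulated data with the spread of these libraries it called none of the changes put in. A missing call therefore says nothing on whether a gene, Hk2 and Pkm included, differed.

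Hk1 was the second hexokinase, well below Hk2. Its FPKM was 8.01 in normal and 6.61 in overexpressing cells with LIF, 6.29 and 5.67 after withdrawal, and 6.22 at 40 days. The normal library with LIF was the highest and the other 4 lay between 5.67 and 6.61 FPKM. The overexpressing library was the lower one in both cultures, by log2 ratios of -0.24 and -0.13, which is the opposite order to Hk2. The limma estimate for cell type was -0.19 ± 0.14 (SE, 4 libraries) with an adjusted p of 0.62, and for withdrawal -0.25 ± 0.14 with an adjusted p of 0.56. At 40 days the log2 ratio was -0.075 against LIF and 0.11 against 24 hours, and the sign of the latter turned under quantile normalization. All of the Hk1 signal came from 1 of its 2 RefSeq transcripts. The other was listed at 0 in all 5 libraries, which may be a failed estimate.

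Hkdc1 was close to undetected in 4 libraries and present at 40 days. Its FPKM was 0.0133 in normal and 0.0121 in overexpressing cells with LIF, and 0.00692 and 0.0400 after withdrawal. At the estimated depths these values correspond to about 2, 2, 1 and 5 fragments. The fragment numbers and the intervals below take the depth estimate as given, which was bounded by a preset window. At 40 days Hkdc1 stood at 2.94 FPKM, about 407 fragments, which was 242-fold the FPKM of overexpressing cells with LIF (95% exact interval 56.7 to 1709, counting error only) and 73.6-fold that after 24 hours (31.8 to 232). Its mean of 0.603 FPKM was under the filter of 1 FPKM, so it was not among the genes tested. On the log2(FPKM + 1) scale, which compresses low values, the differences were 1.96 and 1.92, both past 2-fold. The pairs rest on 1 library each. The endoderm marker sum of 51.3 FPKM was highest in the same library, although Sox17 of that list was listed at 0 there. All fibroblast markers but Thy1 and Col1a1 were also highest there. The part of other cell types in the result was not tested. At 40 days Hkdc1 reached 7.70% of summed hexokinase FPKM, against at most 0.0618% elsewhere, and Hk1 next to it on the chromosome exceeded it 2.12-fold.

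The sequences upstream of Hk2 and Hkdc1 are shown because these 2 hexokinases differed in opposite directions at 40 days. They are the 250 bases before the first annotated start, from RefSeq on GRCm38.p6, and 8 such windows were found for the 5 members. Capitals mark matches, on either strand, to ACGTG (the core of hypoxia response elements), CCAAT (the box bound by NF-Y), TTCNNNGAA (the STAT motif) and GATAAG (bound by Gata4 and its relatives).
Hk2, chr6:82774455-82774704 (GRCm38.p6, minus strand): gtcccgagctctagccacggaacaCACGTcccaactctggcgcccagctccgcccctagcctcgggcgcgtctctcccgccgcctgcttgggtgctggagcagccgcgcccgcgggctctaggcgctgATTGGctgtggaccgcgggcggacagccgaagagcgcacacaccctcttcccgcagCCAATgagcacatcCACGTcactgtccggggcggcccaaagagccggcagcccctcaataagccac
Hkdc1, chr10:62422458-62422707 (GRCm38.p6, minus strand): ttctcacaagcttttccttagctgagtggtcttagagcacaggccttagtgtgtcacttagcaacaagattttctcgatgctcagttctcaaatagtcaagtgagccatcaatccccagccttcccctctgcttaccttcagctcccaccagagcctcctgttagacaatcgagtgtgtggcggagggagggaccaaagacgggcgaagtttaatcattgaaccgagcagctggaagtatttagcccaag
The Hk2 window held 2 matches to ACGTG and 2 to CCAAT, which 16.6% and 33.8% of all 32851 windows of this length hold at least once. The Hkdc1 window held none of the 4 motifs, and nor did the Hk1 windows. Matches to ACGTG and CCAAT were not particular to Hk2 among the members. For Pkm, 1 window held 2 matches to CCAAT, at 66.4% G and C, and the other held 1 to ACGTG. For Pklr, 1 window held 1 match to GATAAG and the other 1 to CCAAT. TTCNNNGAA occurs in 7.0% and GATAAG in 6.5% of all windows, and neither occurs in the Hk2 window. The Hk2 window was 69.6% and the Hkdc1 window 49.6% G and C, beside a median of 52.4% over all windows. Matches are letters in a window and do not show that a factor binds there.

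Pklr was low throughout. With LIF, Pklr was at 0.195 FPKM in normal and 0.183 FPKM in overexpressing cells. It was at 0.395 FPKM in normal cells after withdrawal, and was listed at 0 in overexpressing cells after withdrawal. The 40 day library was the highest at 0.730 FPKM. Hcn3, which overlaps Pklr, was listed at 0 in that library and in normal cells after withdrawal. It was highest, at 0.669 FPKM, in the library where Pklr was listed at 0. With LIF Hcn3 was at 0.164 FPKM in normal and 0.239 FPKM in overexpressing cells. The part of reads assigned between these genes in the order of the Pklr values was not tested. On the log2(FPKM + 1) scale the Pklr ratio at 40 days against LIF was 0.55, under 2-fold, and its mean of 0.300 FPKM kept Pklr out of the genes tested. With a pseudocount of 0.1 in place of 1 the ratio was 1.55, past 2-fold, so the side depends on this choice. At most 0.147% of summed pyruvate kinase FPKM came from Pklr. Of its 2 transcripts, 1 was listed at 0 in all libraries. Alb, a liver marker, and the adult beta globins Hbb-bt and Hbb-bs were listed at 0 in all 5 libraries.

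**Figure D2:**
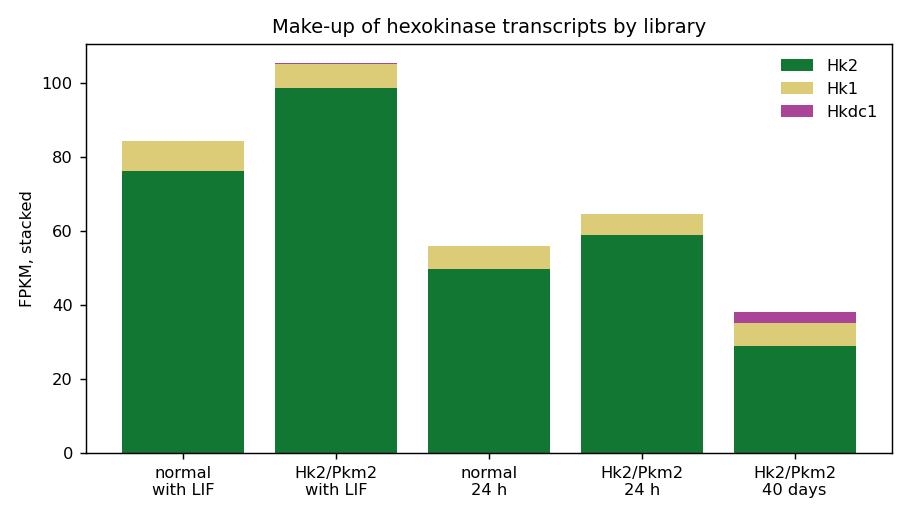
FPKM of Hk2, Hk1 and Hkdc1 (vertical axis, stacked from 0) in each of the 5 libraries (horizontal axis), 1 library per bar. Hk2 makes up 76.0% of the 40 day bar and at least 88.8% of the others, and Hkdc1 is a visible part only at 40 days (7.70%).

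The summed level of the hexokinase transcripts had the same order of libraries as Hk2. The summed FPKM of the 3 genes was 84.3 in normal and 105 in overexpressing cells with LIF, 56.0 and 64.7 after withdrawal, and 38.2 at 40 days. Hk2 gave 90.5% and 93.7% of it with LIF, 88.8% and 91.2% after withdrawal, and 76.0% at 40 days. Hk2 stood 9.51-fold and 14.9-fold above Hk1 with LIF, 7.91-fold and 10.4-fold after withdrawal and 4.66-fold at 40 days. In both cultures this ratio was higher in the library labelled as overexpressing, where Hk2 was higher and Hk1 lower. Pkm exceeded the summed hexokinases 6.05-fold and 5.39-fold with LIF, 10.9-fold and 8.73-fold after withdrawal, and 13.0-fold at 40 days. The order of the levels was Pkm, Hk2, Hk1 in every library. Hkdc1 stood above Pklr at 40 days, and the few fragments of Hkdc1 in the other libraries do not allow an order there.

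**Figure D3:**
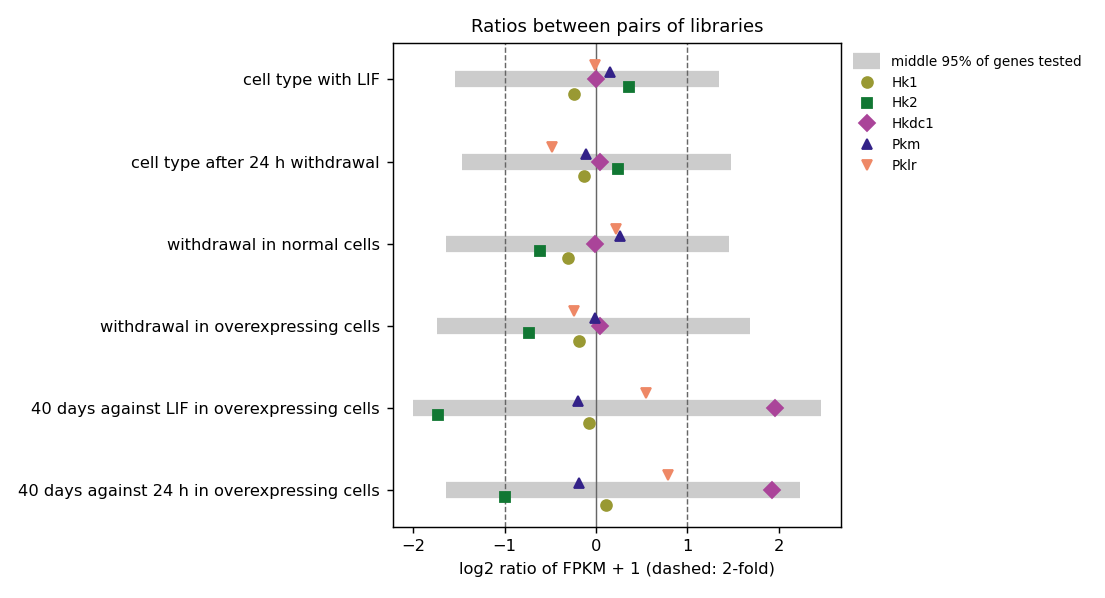
Difference in log2(FPKM + 1) (horizontal axis) of each member in 6 pairs of libraries (vertical axis), 1 library against 1; grey bars hold the middle 95% of 9590 genes and dashed lines mark 2-fold. Hk2 passes 2-fold at 40 days against LIF (-1.73) and Hkdc1 in both 40 day pairs (1.96 and 1.92), all inside the grey bars, and the other members stay within 2-fold.

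Genes around the 2 kinase steps were taken from 7 lists with 56 genes. The lists were chosen with earlier results of these data known, so their shares beside those of all genes only describe these libraries. Of the 56 genes, 55 were in the gene table and 49 had a mean of at least 1 FPKM, of which 6 were listed at 0 in at least 1 library. In limma, 0 of the 49 passed by cell type (smallest adjusted p 0.51, with 7 below 0.05 unadjusted) or by withdrawal (smallest adjusted p 0.32, with 14 below 0.05 unadjusted). Between cell types with LIF 4 were 2-fold higher and 3 lower, 14.3% of the 49 beside 9.43% of all genes, and 3 of these 7 (Eno2, Aldoc and Rbm4) were listed at 0 in 1 library of the pair. After withdrawal 3 were higher and 1 lower, 8.2% beside 9.37%, and 3 of these 4 (Gpt, Hnrnpa1 and Khk) had such a 0. The medians were 0.010 and 0.0020 on the log2 scale, beside -0.044 and -0.021 over all genes. With withdrawal 6 were higher and 3 lower in normal cells, 18.4% beside 10.1%, with such a 0 in 2 of the 9. In overexpressing cells 7 were higher and 4 lower, 22.4% beside 11.9%, with such a 0 in 3 of the 11. Their medians were 0.13 and 0.15 there, beside -0.0055 and 0.0042 over all genes. At 40 days against LIF 4 were higher and 4 lower (16.3% beside 22.3%, median 0.090, all genes 0.076), with such a 0 in 2 of the 8. Against 24 hours 7 were higher and 4 lower (22.4% beside 17.8%, median -0.13, all genes 0.072), with such a 0 in 3 of the 11.

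At the hexokinase step, the glucose transporter Slc2a1 had its lowest value at 40 days, as Hk2 did. Slc2a1 stood at 160 and 151 FPKM with LIF, 113 in both libraries after withdrawal and 46.9 at 40 days. Slc2a3, a second glucose transporter, differed in order, with 65.7 and 193 FPKM with LIF, 52.1 and 38.0 after withdrawal and 138 at 40 days. The channel Vdac1, a docking site of hexokinases, stood at 384 and 370 FPKM with LIF, 297 and 271 after withdrawal and 175 at 40 days. Tigar, a phosphatase that lowers glycolytic flux, stood at 26.9 and 27.5 FPKM with LIF and between 12.3 and 14.1 in the other 3 libraries. Of the 6 genes measured beside this step, 1 was 2-fold higher between cell types with LIF (4.11% of all genes were) and none after withdrawal (4.19%). Of the 4 genes on the docking list, Vdac1 to Vdac3 and Tigar, none passed 2-fold in either (9.43% and 9.37% of all genes did). At 40 days against LIF 2 of them were 2-fold lower (8.31% of all genes were), Vdac1 and Tigar, with a list median of -0.39. Vdac2 and Vdac3 went the other way in that pair, with log2 ratios of 0.30 and 0.95. Vdac3 was also higher with withdrawal, by 0.94 in normal and 0.96 in overexpressing cells.

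The other hexose-phosphorylating enzymes ranged from listed at 0 to well above Hk1. Hk3 was listed at 0 in all 5 libraries. Adpgk, which phosphorylates glucose with ADP, stood between 18.1 and 21.2 FPKM in 4 libraries and at 28.0 FPKM at 40 days, above Hk1 in each. Galk1, which phosphorylates galactose, stood at 48.7 and 28.1 FPKM with LIF, 43.1 and 69.0 after withdrawal and 50.1 at 40 days.

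In the rest of glycolysis the phosphofructokinases, which catalyse the next regulated step after hexokinase, differed 2-fold with withdrawal. Pfkl stood at 12.1 and 26.7 FPKM with LIF, 67.1 and 56.0 after withdrawal and 46.8 at 40 days. Pfkm stood at 8.78 and 11.01 FPKM with LIF, 22.7 and 31.6 after withdrawal and 13.0 at 40 days. Of the 12 genes past the filter, 3 were 2-fold higher with withdrawal in normal cells (4.62% of all genes were) and 3 in overexpressing cells (5.79%). These were Pfkl, Pfkm and Pfkp in both, while Hk2 was lower there by less than 2-fold. In normal cells 1 was 2-fold lower (5.51% of all genes were), Aldoc, which was listed at 0 after withdrawal. Eno1 was listed at 0 in all libraries and Aldoc in 3, and Gpi1 had a hyphen in place of a value, so the list does not cover each step.

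At the pyruvate kinase step, the lactate exporter Slc16a3 was higher in overexpressing cells in both cultures. It stood at 11.9 and 29.3 FPKM with LIF, 27.4 and 61.8 after withdrawal and 23.8 at 40 days. Ldha, which turns pyruvate into lactate, had a narrow range as Pkm did, between 418 and 519 FPKM. Pdha1, a subunit of pyruvate dehydrogenase, was at 111 FPKM in the normal library with LIF and between 41.4 and 59.4 in the other 4 libraries. Gpt2, which exchanges pyruvate and alanine, stood at 13.8 to 19.3 FPKM in 4 libraries and at 66.7 FPKM at 40 days. Of these 16 genes, 1 was 2-fold higher and 1 lower between cell types with LIF (4.11% and 5.32% of all genes were). After withdrawal 2 were higher and none lower (4.19% and 5.18% of all genes). The 2 were Slc16a3 and Gpt, the latter listed at 0 in normal cells after withdrawal.

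Among the regulators of the Pkm exon choice, Ptbp1, which favours the M2 exon, stood at 231 and 207 FPKM with LIF, 181 and 212 after withdrawal and 123 at 40 days. Hnrnpa2b1, which acts with it, stood between 484 and 586 FPKM. Srsf3, a splicing factor that also acts on this choice, stood between 85.4 and 152 FPKM. Hnrnpa1 was listed at 0 in 4 libraries and Rbm4 in 1, so ratios of both rest on values that may be failed estimates. The 2 of these 5 genes that were 2-fold higher with withdrawal in overexpressing cells (5.79% of all genes were) were Hnrnpa1 and Rbm4. Of transcription factors known for these genes, Stat3, which carries the LIF signal, stood at 28.2 and 29.3 FPKM with LIF, 6.26 and 5.28 after withdrawal and 11.7 at 40 days. It was the 1 of 3 factors past the filter that was 2-fold lower with withdrawal in each cell type (5.51% of all genes were in normal and 6.07% in overexpressing cells). Hif1a stood between 31.7 and 38.3 FPKM in 4 libraries and at 52.7 FPKM at 40 days, and Myc between 24.3 and 53.8 FPKM, lowest at 40 days.

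**Figure D4:**
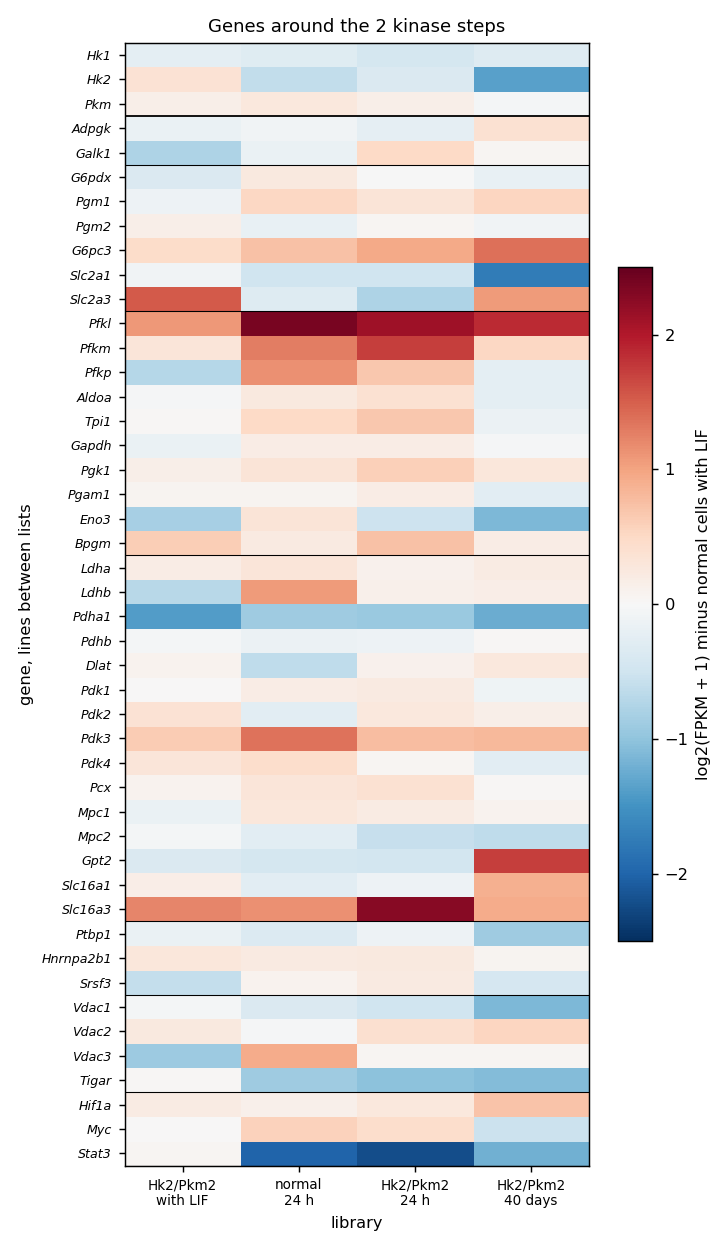
Difference in log2(FPKM + 1) from normal cells with LIF (colour, red higher and blue lower) for 46 genes (rows) in the other 4 libraries (columns), with the 3 members past the filter on top and 43 list genes above 0 in every library below, lines between lists. The rows of Hk2, Slc2a1 and Vdac1 are each bluer at 40 days than in their other columns, Pfkl is red in all 4 columns, and Pkm stays pale. Stat3 and Pdha1 are bluer than Vdac1 at 40 days.

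Profiles over the 5 libraries were compared as mean-centred log2(FPKM + 1) values with 8628 other genes above 0 in every library. Near to Hk2 were Hap1 (root mean square difference 0.10) and Cdc5l (0.12). Hap1 stood at 17.1 and 23.1 FPKM with LIF, 11.7 and 15.6 after withdrawal and 5.78 at 40 days. Nearest to Hk1 were Thap4 (0.037), Kbtbd6 (0.040) and Gga1 (0.041), and nearest to Pkm were Rps27l (0.034), Ppig (0.037) and Lrfn3 (0.037). Profiles of 5 values that vary little find many near neighbours, and the likeness is a description of these libraries.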

How the data were processed

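Messenger RNA libraries (TruSeq RNA kit, per the labels' protocols) of 5 samples, 1 per group, were analysed. The authors deposited FPKM per RefSeq transcript, made with TopHat2 2.0.7, Cufflinks 2.0.2 and mm9, per the submitters' processing notes, with other settings not given in the sources. Transcript accessions were paired with symbols through a RefSeq table of assembly GRCm38.p6, with 28066 of 28698 transcripts matched, and FPKM was summed per gene. A hyphen in 610 cells led to 337 genes being left out. The FPKM values were put on the log2(FPKM + 1) scale, which understates changes of low genes, and 9590 genes with a mean of at least 1 FPKM were tested. A gene was counted as different past 2-fold between 2 libraries, with no test.

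Limma 3.58.1 (R 4.3.3) was fitted to the 4 libraries of 2 cell types by 2 cultures, additive, with a variance trend and Benjamini-Hochberg adjustment over all genes tested. The script was tested on simulated data: it returned the sizes of the changes put in, but called none of them at the spread of these libraries, and nearly all at a much smaller spread. Nothing in the labels says that libraries are separate lines. With 1 library per group, the fit has no replicates from which to take its error. Its 1 residual degree of freedom reflects only how far the cell type difference changed from 1 culture to the other. The SE and p-values combine that departure from additivity with a variance trend over all genes. The trend weighs more, with 1.46 prior degrees of freedom against 1 residual. An SE is therefore not a gene's own change between cultures, and does not measure spread between replicate libraries. Depth was estimated from transcripts over 1500 bases, within a preset window of values that bounds the result. Of the genes tested, 749 were listed at 0 in at least 1 library, which can be a failed estimate. The members and lists were chosen with earlier results of these data known. By rule, the members, up to 4 large ratios per list and the 3 nearest profiles per member were named, and Ldha, Hk3, Eno1 and Gpi1, also on the lists, were added after their values were seen. Some genes that the rule or the lists cover are not reported here. Python 3.11.15 and Biopython 1.88 were used, the latter to align coding sequences.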

Additional observations from a re-analysis of the deposited data

Results flagged for a closer look

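Some log2 ratios had opposite signs for 1 contrast in the 2 cultures or the 2 cell types. None of these differences was tested, since the interaction is the residual of the fit. For cell type, with LIF and then after withdrawal, Pkm had ratios of 0.15 and -0.11, Slc2a3 of 1.54 and -0.45, Pfkl of 1.08 and -0.26, and Hkdc1, at 1 to 5 estimated fragments, of -0.002 and 0.047. For withdrawal, in normal and then in overexpressing cells, Pkm had ratios of 0.26 and -0.007, Pklr of 0.22 and -0.24 with overexpressing cells listed at 0 after withdrawal, Galk1 of -0.17 and 1.27, and Hkdc1 of -0.009 and 0.039.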

How the results depend on the processing

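Pairing by replicate was not possible because each group has 1 library and so no replicate numbers to pair, and for the same reason no replicate could be left out. The additive fit compares cell types within each culture and leaves no test of the interaction. With a pseudocount of 0.1, Hk2 passed 2-fold at 40 days against 24 hours (-1.02 on the log2 scale), and Pklr passed between cell types after withdrawal (-2.31), with withdrawal in overexpressing cells (-1.50), and at 40 days against LIF (1.55) and 24 hours (3.05). All of these Pklr ratios but the one against LIF use overexpressing cells after withdrawal, where Pklr was listed at 0, which may be a failed estimate. The smaller pseudocount weighs low values more by construction. Quantile normalization turned Hk1 at 40 days against 24 hours to -0.098 and moved the median of all genes in the 40 day pairs by -0.11 and -0.12. It moved the share of higher among 2-fold genes there from 62.8% to 52.3% against LIF, and from 67.6% to 54.0% against 24 hours. With genes above 0 in every library only, which are fewer genes, 2-fold counts were 541 and 550 between cell types with LIF and after withdrawal, and 618 with withdrawal in normal cells. The other 27 counts stayed within 1.5 times and the other 84 ratios of members kept their side of 2-fold. Of these, 83 kept their sign, and Pkm at 40 days against 24 hours was 0.0 under quantile normalization (-0.19 without it). Limma called 0 genes in all 6 alternatives for both terms, which shows no stability, since a fit with 1 residual degree of freedom had no power to call changes at this spread. Its 36 alternative estimates for Hk1, Hk2 and Pkm kept their sign, with adjusted p from 0.41 to 0.64 for Hk2 by cell type and from 0.21 to 0.44 by withdrawal. Values of Hkdc1 outside 40 days rest on too few fragments to rank.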
